A study of Mus musculus with 4 samples.

Results

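The 39 genes described here are markers of macrophages and granulocytes, measured on arrays of mouse CD4 T cell populations. They were taken from a list of names, in which 20 are macrophage genes, 8 are granulocyte genes and 11 are signalling and regulatory genes that several myeloid cell types share. All 39 were found in the platform annotation, out of 22180 named genes, and each was read by 1 probe set. The list was drawn up with earlier results of these arrays known, so the size of its differences is a description and not independent evidence.

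Macrophages take up dead cells and particles, digest them, and return iron from engulfed red cells. In the thymus they clear the many thymocytes that die during selection. Granulocytes, chiefly neutrophils, carry preformed antimicrobial proteins in granules that are filled in sequence as the cells mature in the marrow, so that transcripts of the first granules mark precursors and transcripts of later ones mark more mature cells. Activating receptors of both lineages signal through small adaptor proteins with a tyrosine motif, of which the Fc receptor gamma chain and DAP12 are the best known. None of these genes belongs to the core programme of CD4 T cells, although several, named below, are also used by B cells, natural killer (NK) cells or activated T cells.

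RNA came from 4 populations of mice on the C57BL/6 background, 8 weeks old, with 1 array each. Naive cells were CD4+CD62Lhi cells from the spleen of wild-type mice. The cTh1 sample, classical Th1 cells, was grown from such cells over 5 days with CD3/CD28 beads, 2 ng/ml of IL-12, 50 U/ml of IL-2 and anti-IL-4 (5 mg/ml in the labels). TT naive cells were CD4+CD62L+CXCR3- and natural Th1 cells (nTh1) CD4+CD62L+CXCR3+ thymocytes of CIITAtg mice, which carry a transgene of the MHC class II regulator CIITA. The sources used here do not give the promoter of the transgene, the sort purity or the number of mice per sample. With 1 array per population, replicates cannot check any difference, and p-values are not used. Values are log2 RMA summaries, and a difference is the log2 value of the first array minus that of the second. The SD of the difference between probe sets of the same gene, the only error these data allow, was 0.257 for nTh1 minus TT naive over 455 genes, 0.402 for cTh1 minus the array labelled naive and 0.481 for nTh1 minus cTh1. It does not cover animals, sorts or arrays, and no member has a second probe set of its own.

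The array labelled naive did not look like resting naive cells. Cxcr3 stood at 9.80 on it, against 7.76 in TT naive and 9.91 in nTh1. Zbtb16 (PLZF, a transcription factor of innate-like lymphocytes) was at 12.23, against 9.36 in TT naive and 9.88 in nTh1. H2-Aa, an MHC class II gene, was at 12.66 on this array, which is wild type by its label, and at 12.66 in nTh1. Tbx21, a transcription factor of Th1 cells, was at 9.81 on this array, 7.11 in TT naive, 11.25 in cTh1 and 7.92 in nTh1. Ifng was at 8.80, 5.88, 11.19 and 7.34 in the same order. Signs of differences from this array rest on its label, and it is called the array labelled naive below. The identity of the nTh1 array also rests on its label and was not tested. On all 4 arrays the T cell genes were high: Cd3e lay between 12.88 and 13.11 and Cd4 between 12.33 and 12.72, and all 11 measured genes of a T cell list were above the background level defined next.

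The levels were read against a pair of marks. The level filter was the median of all values, 6.61, and a gene passed it in a comparison if either array reached that level. As a rough guide to the signal of genes that lymphocytes are not known to use, the 95th percentile of 1105 olfactory receptor genes was 6.42 (labelled naive), 6.55 (TT naive), 6.45 (cTh1) and 6.56 (nTh1). Probe sets differ in their own background, so this level marks no exact limit of detection. Of the 39 members, 31 were above it in nTh1, 23 in the population labelled naive, 21 in cTh1 and 10 in TT naive. Cd14, Cd163, Mrc1, Fcgr1, S100a8, Camp and Cebpa were above it on no array. Fewer cells of a type and less RNA per cell cannot be told apart in such bulk samples.

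**Figure D1:**
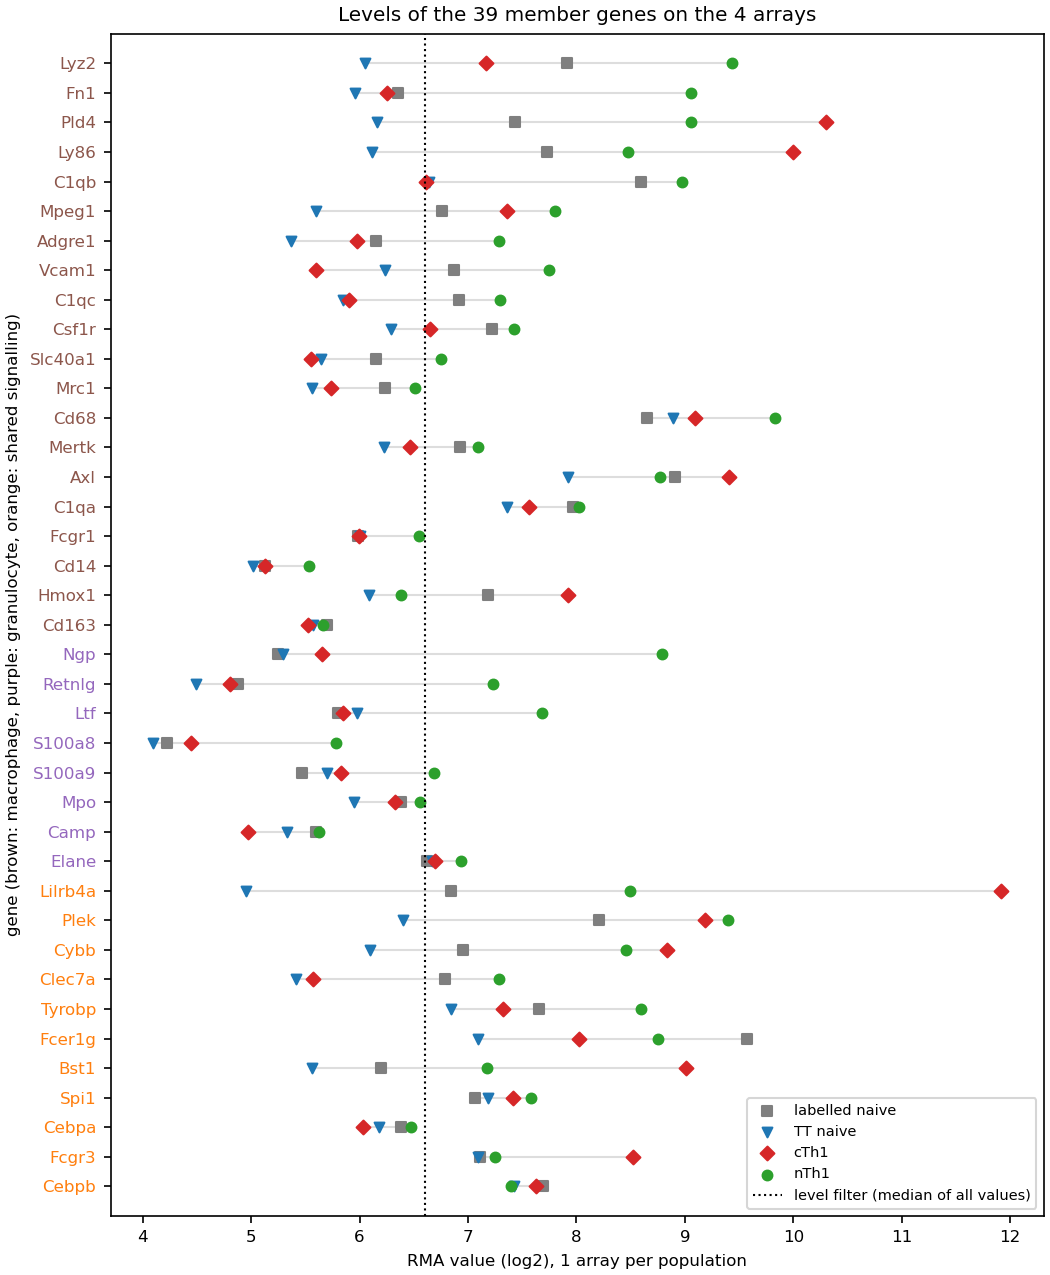
Each row is 1 member gene and each symbol its log2 RMA value on 1 of the 4 arrays (square, labelled naive; triangle, TT naive; diamond, cTh1; circle, nTh1), with genes of a group sorted by nTh1 minus TT naive and the dotted line at the level filter of 6.61. The nTh1 circle is the highest of the 4 for 28 of the 39 genes and stands far from the others for Ngp, Retnlg and Fn1, while the cTh1 diamond leads for Lilrb4a, Pld4, Ly86 and Bst1.

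The nTh1 array had the highest value of the 4 for 28 of the 39 members, 21 of them past the level filter on some array, where 20.5% of all 13238 genes past that filter had their highest value in nTh1. TT naive was the lowest array for 25 members, 21 of them past the filter, against 18.7% of all genes. By group, nTh1 was the highest array for 15 of 20 macrophage, 8 of 8 granulocyte and 5 of 11 shared signalling genes. Past the filter it was so for 12 of 16, 5 of 5 and 4 of 10. Adgre1, Fn1, Slc40a1, Ngp, Retnlg, Ltf and S100a9 reached the filter in nTh1 alone. For these genes the filter fixed nTh1 as the highest array, so the counts past it support nothing further. Its lead over the array labelled naive was 0.02 for Camp, 0.06 for C1qa and 0.10 for Cebpa, and over cTh1 0.17 for Spi1. Centring the arrays on their medians lowers nTh1 by 0.13 and 0.18 against these arrays, so none of these leads remains.

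By the labels, the comparison of nTh1 with TT naive sets CXCR3+ against CXCR3- thymocytes of the same genotype. Each of the 3 groups had members for which nTh1 was higher by 2-fold or more, and none was at least 2-fold lower. The sign was positive for 38 of the 39 and negative for Cebpb. The Y-linked gene Eif2s3y was at 8.55 in TT naive and 5.16 in nTh1, with 8.61 on the array labelled naive and 4.97 in cTh1, while Xist lay between 12.56 and 13.25. The sex of the animals thus moves with this comparison and with that of cTh1 and the array labelled naive, and its part in the members' values was not tested. Of the 39 members, 30 passed the level filter and 21 were at least 2-fold higher. The background over all 12435 genes past the filter was 1.41% at least 2-fold higher and 1.09% at least 2-fold lower. The median difference over all 39 members was 1.45, against -0.05 over all genes past the filter. With the filter raised to the 75th percentile, 11 members counted as at least 2-fold higher.

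Among the macrophage genes, 15 of 20 passed the filter, nTh1 was at least 2-fold higher for 11, and the median difference over all 20 was 1.12. Lyz2, the lysozyme of macrophages and neutrophils, stood at 7.92 (labelled naive), 6.05 (TT naive), 7.17 (cTh1) and 9.44 (nTh1). The nTh1 array was thus the highest, TT naive was below the olfactory receptor level, and the difference of 3.38 corresponds to 10.4-fold. Lyz2 has a near-identical neighbour, Lyz1, whose own probe set differed by 0.50, so the split of signal between them is uncertain. Fn1, the matrix protein fibronectin that macrophages and stromal cells secrete, was at 6.36, 5.96, 6.25 and 9.06 in the same order of arrays. Only nTh1 had Fn1 above the filter, with a difference from TT naive of 3.10 (8.56-fold).

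C1q, the first component of the classical complement pathway, is built from 3 chains whose genes C1qa, C1qb and C1qc lie next to each other, with 0 coding genes between them in the RefSeq order, and macrophages are a main source of all of them. C1qb was at 8.59 (labelled naive), 6.64 (TT naive), 6.61 (cTh1) and 8.98 (nTh1). C1qc was at 6.92, 5.84, 5.90 and 7.30. Both were therefore high on the same pair of arrays, labelled naive and nTh1, and low on the other pair, with nTh1 above TT naive by 2.34 and 1.45. C1qa had the same pair of high arrays over a narrower range, at 7.97, 7.36, 7.56 and 8.02, and its difference of 0.66 was under 2-fold.

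Other macrophage genes at least 2-fold higher in nTh1 than in TT naive were the pore-forming Mpeg1 by 2.21, the surface receptor Adgre1 (F4/80) by 1.91, the adhesion molecule Vcam1 by 1.51, Csf1r, the receptor for macrophage colony-stimulating factor, by 1.14, and the iron exporter Slc40a1 (ferroportin) by 1.10. Adgre1 was at 6.15, 5.37, 5.98 and 7.28 on the arrays labelled naive, TT naive, cTh1 and nTh1, so it was above the filter in nTh1 alone. Mpeg1 was at 6.77, 5.60, 7.36 and 7.81, and TT naive was the single low array. Vcam1, which stromal cells also carry, was at 6.87, 6.24, 5.60 and 7.75. Slc40a1 was at 6.15, 5.65, 5.55 and 6.75, passing the filter in nTh1 by a small margin. Csf1r was at 7.22, 6.29, 6.65 and 7.43.

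Pld4, a lysosomal nuclease, and Ly86, the MD-1 partner of the receptor CD180, are used by B cells and dendritic cells as well as macrophages. Pld4 was at 7.43, 6.16, 10.30 and 9.06 in the order labelled naive, TT naive, cTh1 and nTh1, and Ly86 at 7.73, 6.11, 9.997 and 8.48. In nTh1 they were above TT naive by 2.90 and 2.36, but cTh1 was higher still. The B cell genes Cd79a, Ms4a1 and Spib also had their highest values in cTh1, at 10.29, 8.33 and 9.01, with 7.64, 6.45 and 6.54 in nTh1 and 6.50, 5.27 and 5.38 in TT naive. The part of B cells in the values of Pld4 and Ly86 was not tested.

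The remaining macrophage genes differed by under 2-fold between nTh1 and TT naive. The lysosomal protein Cd68 was at 8.65, 8.89, 9.10 and 9.83, with nTh1 above TT naive by 0.94. Also higher were the mannose receptor Mrc1 by 0.95, and Mertk and Axl, receptors for dead cells, by 0.86 and 0.85. The high-affinity IgG receptor Fcgr1 differed by 0.54, the endotoxin co-receptor Cd14 by 0.51, the haem-degrading enzyme Hmox1 by 0.29 and the haemoglobin scavenger Cd163 by 0.10. Cd14 lay between 5.02 and 5.53 and Cd163 between 5.53 and 5.70 on the 4 arrays, so neither gene was above the olfactory receptor level anywhere. All 20 macrophage genes had a positive difference.

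Of the 8 granulocyte genes, 5 passed the filter, nTh1 was at least 2-fold higher for 3, and the median over all 8 was 1.33. The 3 are Ngp and Ltf, proteins of the secondary granules, and Retnlg, a resistin-like secreted protein of neutrophils. Ngp was at 5.25 (labelled naive), 5.29 (TT naive), 5.66 (cTh1) and 8.79 (nTh1). Retnlg was at 4.88, 4.49, 4.81 and 7.23, and Ltf, which encodes lactoferrin, at 5.80, 5.98, 5.85 and 7.68. All 3 were thus low on 3 arrays and above the filter in nTh1 alone. The differences from TT naive were 3.50 for Ngp (11.3-fold), 2.74 for Retnlg and 1.70 for Ltf.

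S100a8 and S100a9, adjacent genes for the calcium-binding pair that fills the neutrophil cytoplasm, were also highest in nTh1. S100a9 was at 5.47, 5.70, 5.83 and 6.68, and its difference from TT naive of 0.99 was just short of 2-fold. S100a8 was at 4.23, 4.10, 4.45 and 5.78, a difference of 1.68 that did not count because no array reached the filter. The genes of the first granules, made in promyelocytes, differed by under 2-fold. Elane (neutrophil elastase) was at 6.63, 6.67, 6.70 and 6.94 and Mpo (myeloperoxidase) lay between 5.95 and 6.56, with nTh1 above TT naive by 0.27 and 0.61. Camp, the cathelicidin of the secondary granules, lay between 4.97 and 5.62 and did not pass the filter, unlike Ngp and Ltf of the same granules.

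Among the shared signalling and regulatory genes, 10 of 11 passed the filter, nTh1 exceeded TT naive at least 2-fold for 7, and the median was 1.66. Lilrb4a, an inhibitory receptor of myeloid cells that activated lymphocytes also make, was higher by 3.53. It was at 6.85 (labelled naive), 4.96 (TT naive), 11.92 (cTh1) and 8.49 (nTh1), so cTh1 far exceeded nTh1. Its gene family has close copies, and its probe set is uncertain for that reason. Plek (pleckstrin, a protein kinase C substrate of leukocytes and platelets) was at 8.21, 6.40, 9.19 and 9.39, with TT naive as the low array and a difference of 2.99. Cybb, the membrane subunit of the phagocyte NADPH oxidase, which B cells share, was at 6.95, 6.09, 8.84 and 8.46, and differed by 2.37.

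The adaptors Fcer1g (Fc receptor gamma chain) and Tyrobp (DAP12) also serve NK cells and some innate-like T cells. Fcer1g was at 9.57 (labelled naive), 7.09 (TT naive), 8.03 (cTh1) and 8.75 (nTh1). Tyrobp was at 7.66, 6.85, 7.32 and 8.59. They were above TT naive in nTh1 by 1.66 and 1.75, but the highest array was the one labelled naive for Fcer1g and nTh1 for Tyrobp. Of the 10 genes of an NK list that includes these adaptors, 6 were above the olfactory receptor level in nTh1, 5 in TT naive, 7 in cTh1 and 7 on the array labelled naive. Eomes, a T-box factor, was at 10.03, 8.84, 7.94 and 10.68, and Gzma, a granzyme, at 7.83, 5.94, 10.52 and 7.58. The NK receptor genes Ncr1, Klrb1c, Klre1 and Klrk1 were below the olfactory receptor level in nTh1, at 5.75, 5.12, 5.70 and 6.24. They were above TT naive by 0.36, 0.28, 0.01 and 1.09. Klrd1, also an NK receptor gene, was above the olfactory receptor level on both arrays. It was at 7.65 in nTh1 and 7.73 in TT naive, a difference of -0.08. The part of NK cells in the adaptor values was not tested. Clec7a (dectin-1, a receptor for fungal glucan) was at 6.79, 5.41, 5.57 and 7.28 and higher by 1.87, with the same pair of high arrays as C1qb. Bst1 (CD157, an ectoenzyme) was at 6.20, 5.56, 9.01 and 7.18 and higher by 1.62.

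The transcription factors that specify myeloid cells differed by under 2-fold in every comparison. Spi1, which encodes PU.1, was at 7.06, 7.19, 7.42 and 7.58, with nTh1 above TT naive by 0.40. Cebpa, the factor of granulocyte precursors, lay between 6.03 and 6.48, and Cebpb was at 7.69, 7.43, 7.63 and 7.40. For Cebpb nTh1 was the lowest array, at -0.03 from TT naive. Fcgr3, the low-affinity IgG receptor CD16, was at 7.11, 7.09, 8.52 and 7.24, and differed by 0.16 between nTh1 and TT naive. It belongs to a family of similar receptors, so its probe set is uncertain.

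Upstream sequence is shown for some of the members that were at least 2-fold higher in nTh1 than in TT naive, because PU.1 and C/EBP factors are known regulators of these lineages. The RefSeq promoter table (GRCm38.p6) held 27 of the 39 members: 12 of 20 macrophage, 8 of 8 granulocyte and 7 of 11 shared signalling genes. Adgre1, C1qa, Cd14, Csf1r, Fn1, Hmox1, Slc40a1, Vcam1, Bst1, Lilrb4a, Spi1 and Tyrobp are not shown. In the 250 bases before each start, on both strands, the letters GAGGAA of a PU.1 site and TTGCNNAA of a C/EBP site were searched. The first of these was present in 23.3% and the second in 9.56% of all 32851 windows of that length. Capitals mark every match, which on the opposite strand reads TTCCTC for the PU.1 letters. Mpeg1, Pld4, Ly86, Cybb, Fcer1g and Clec7a were also at least 2-fold higher and had an entry, but their windows are not printed. Of these only Clec7a held a match, to the PU.1 letters. The granulocyte genes that were at least 2-fold higher in nTh1 come first, then the macrophage genes Lyz2, C1qb and C1qc, then Plek.
Ngp, chr9:110419558-110419807, plus strand: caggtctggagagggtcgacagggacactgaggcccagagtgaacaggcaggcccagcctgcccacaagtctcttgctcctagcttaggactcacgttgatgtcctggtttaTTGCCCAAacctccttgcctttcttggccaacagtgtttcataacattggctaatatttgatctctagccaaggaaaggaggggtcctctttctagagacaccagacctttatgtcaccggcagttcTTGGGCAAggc
Ltf, chr9:111019042-111019291, plus strand: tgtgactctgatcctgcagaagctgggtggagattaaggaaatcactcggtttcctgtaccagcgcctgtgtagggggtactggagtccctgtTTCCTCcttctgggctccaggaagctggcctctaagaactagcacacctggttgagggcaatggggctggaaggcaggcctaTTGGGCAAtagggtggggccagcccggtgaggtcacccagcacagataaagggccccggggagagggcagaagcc
Retnlg, chr16:48872358-48872607, plus strand: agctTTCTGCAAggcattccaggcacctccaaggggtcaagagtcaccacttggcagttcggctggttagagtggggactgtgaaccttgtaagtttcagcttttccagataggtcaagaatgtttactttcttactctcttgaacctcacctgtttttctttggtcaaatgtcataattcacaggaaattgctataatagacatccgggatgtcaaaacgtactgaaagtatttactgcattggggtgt
Lyz2, chr10:117282273-117282522, minus strand: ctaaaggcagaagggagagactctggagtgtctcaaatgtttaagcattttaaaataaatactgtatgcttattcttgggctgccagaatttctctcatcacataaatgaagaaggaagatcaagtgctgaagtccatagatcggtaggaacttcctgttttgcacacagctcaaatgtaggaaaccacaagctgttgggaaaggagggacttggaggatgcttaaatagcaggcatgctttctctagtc
C1qb, chr4:136886201-136886450, minus strand: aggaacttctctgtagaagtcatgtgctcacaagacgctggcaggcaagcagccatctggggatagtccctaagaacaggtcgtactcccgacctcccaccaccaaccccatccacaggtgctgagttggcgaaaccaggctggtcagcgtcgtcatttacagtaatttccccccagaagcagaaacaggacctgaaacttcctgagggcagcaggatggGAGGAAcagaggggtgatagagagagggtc
C1qc, chr4:136892915-136893164, minus strand: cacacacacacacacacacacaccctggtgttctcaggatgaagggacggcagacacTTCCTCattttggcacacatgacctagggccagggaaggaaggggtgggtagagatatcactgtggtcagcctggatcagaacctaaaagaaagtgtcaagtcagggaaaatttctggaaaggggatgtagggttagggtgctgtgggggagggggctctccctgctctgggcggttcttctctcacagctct
Plek, chr11:17008719-17008968, minus strand: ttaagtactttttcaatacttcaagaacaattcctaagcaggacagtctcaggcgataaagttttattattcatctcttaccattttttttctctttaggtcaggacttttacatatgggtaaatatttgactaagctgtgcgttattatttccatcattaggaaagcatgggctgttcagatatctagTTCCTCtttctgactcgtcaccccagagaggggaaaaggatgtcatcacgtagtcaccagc

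The C/EBP letters were present upstream of 4 of 8 granulocyte genes (Ltf, Ngp, Retnlg and S100a9), 1 of 12 macrophage genes (Cd68) and 1 of 7 shared signalling genes (Fcgr3). Of the genes that stood out in nTh1, Ngp, Ltf and Retnlg are among the 4, Lyz2 had no match, and Adgre1 and Fn1 had no entry. These genes were picked by their difference, so this is a description only. The PU.1 letters were present upstream of 6 of 12 macrophage genes (Axl, C1qb, C1qc, Cd68, Fcgr1 and Mrc1), 4 of 8 granulocyte genes (Elane, Ltf, Mpo and S100a8) and 3 of 7 shared signalling genes (Clec7a, Fcgr3 and Plek). A longer form, GAGGAAGT, which contains the shorter one, was in 2.44% of all windows and upstream of C1qc, Elane, Mpo and S100a8. Neither set of letters was in the windows of Lyz2, Mpeg1, Pld4, Ly86, Cybb, Fcer1g, Camp, Cd163, Mertk, Cebpa or Cebpb. A match describes these letters only and does not show that a factor binds.

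Cultured Th1 cells were next set against the spleen cells labelled as their starting population. The members went both ways: for 6 of 39 cTh1 was at least 2-fold higher and for 5 at least 2-fold lower, with 24 past the filter. The background over all 12835 genes past the filter was 5.13% higher and 3.35% lower at 2-fold, and the median over all 39 members was -0.06, against -0.02 over all genes past the filter. At a 3-fold threshold 1 member was lower.

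Lilrb4a was higher in cTh1 by 5.07 (33.6-fold), Pld4 by 2.86, Bst1 by 2.81, Ly86 by 2.27, Cybb by 1.89 and Fcgr3 by 1.41. Plek, at 0.98, was just under 2-fold, and reached 1.03 when arrays were centred on their medians. Lower in cTh1 were C1qb at -1.98, Fcer1g at -1.54, Vcam1 at -1.28, Clec7a at -1.22 and C1qc at -1.01. With arrays centred on their medians C1qc was at -0.97, which left 4 members at least 2-fold lower, 2 of them macrophage genes. The macrophage median was -0.18, with 2 of 20 genes at least 2-fold higher and 3 lower, and among the shared signalling genes the median was 0.35, with 4 of 11 higher and 2 lower. No granulocyte gene differed by 2-fold, their differences ran from -0.63 for Camp to 0.41 for Ngp, and only Elane passed the filter. B cell genes moved with this comparison: 9 of 13 measured exceeded the array labelled naive at least 2-fold, among them Cd79a by 3.76, with a median of 2.40, and 12 of 13 were above the olfactory receptor level in cTh1 against 6 on the array labelled naive. Their part in the values of Pld4, Ly86, Cybb, Bst1 and Fcgr3 was not tested.

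These comparisons have no array in common, so the members can be set side by side. Pld4, Ly86, Cybb, Lilrb4a and Bst1 were at least 2-fold higher both in nTh1 than in TT naive and in cTh1 than on the array labelled naive. C1qb, C1qc, Vcam1, Fcer1g and Clec7a were at least 2-fold higher in the first and at least 2-fold lower in the second. C1qc leaves this class with centred arrays. Another 11 members were counted as higher in the first only, among them Lyz2, Fn1 and the granulocyte genes Ngp, Retnlg and Ltf. Fcgr3 was counted in the second only, and 17 members in neither, including S100a8, whose difference of 1.68 was below the level filter. Over all 22180 genes, 40 were higher in both, 22 higher in the first and lower in the second, 113 higher in the first only, 603 higher in the second only, and 20914 were counted in neither.

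**Figure D2:**
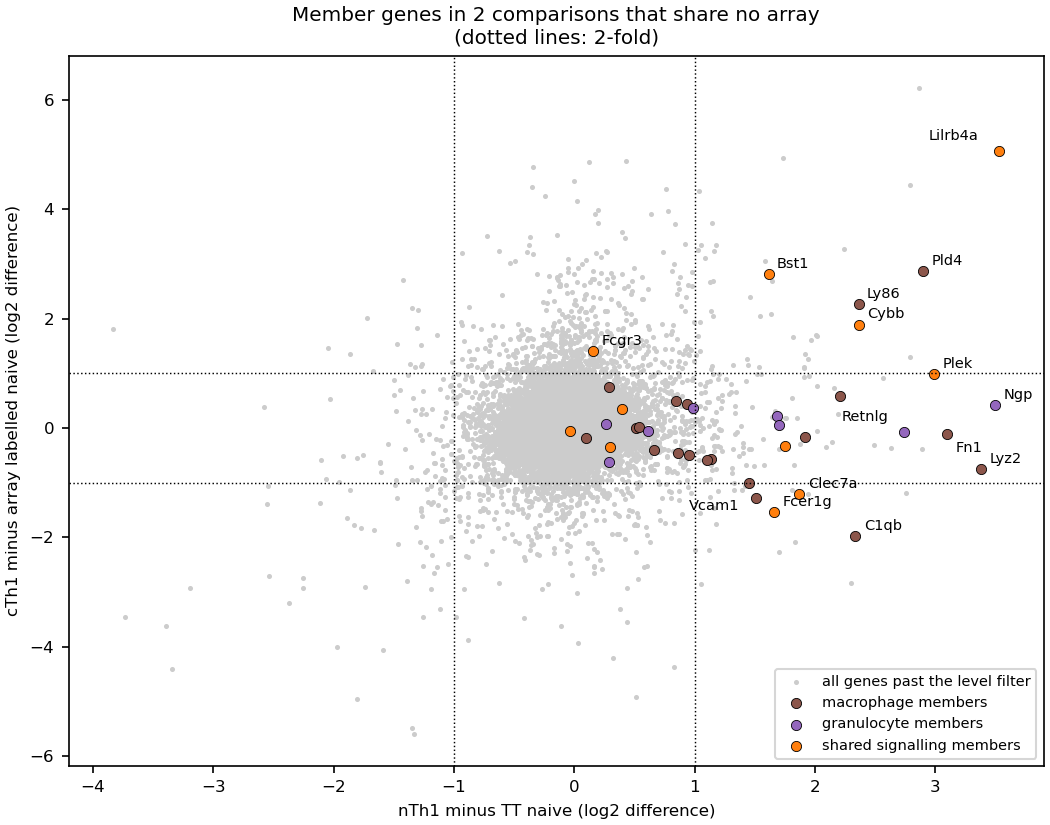
The horizontal axis is the log2 difference of nTh1 minus TT naive and the vertical axis that of cTh1 minus the array labelled naive, with members coloured by group, genes past the level filter in grey and dotted lines at 2-fold. Nearly all members lie to the right of zero, Lilrb4a, Pld4, Bst1, Ly86 and Cybb lie in the upper right, and C1qb, Fcer1g, Vcam1 and Clec7a in the lower right.

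The last main comparison sets natural against classical Th1 cells. In nTh1 minus cTh1, 12 of the 39 were at least 2-fold higher and 6 at least 2-fold lower, with 31 past the filter, against 3.46% higher and 8.3% lower among all 12841 genes past it. With centred arrays these shares were 2.14% higher and 11.5% lower. The median over all members was 0.63, against -0.08 over all genes past the filter. Plek, Cybb, Cd68 and Mpeg1 differed by under 2-fold, at 0.20, -0.38, 0.73 and 0.45. Tissue, genotype and culture cannot be told apart here.

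Higher in nTh1 than in cTh1 were 7 of 20 macrophage genes, led by Fn1 at 2.80, C1qb at 2.36, Lyz2 at 2.27 and Vcam1 at 2.15, with a median of 0.68. All 8 granulocyte genes had a positive difference, with Ngp at 3.13, Retnlg at 2.43, Ltf at 1.83 and a median of 1.09, and those 3 reached 2-fold. Of the shared signalling genes Clec7a was higher by 1.71 and Tyrobp by 1.27. Lower in nTh1 were Lilrb4a at -3.43, Bst1 at -1.83, Hmox1 at -1.54, Ly86 at -1.52, Fcgr3 at -1.27 and Pld4 at -1.24. The shared signalling median was 0.17 and turned to -0.38 over members past a filter at the 75th percentile. With that filter 5 members were at least 2-fold higher, and at a 3-fold threshold 2 were lower. In the same comparison 8 of 13 B cell genes were at least 2-fold lower, and their part in the lower values was not tested. The array medians differed by 0.18, so centring moves each value down by that amount, which takes Spi1 from 0.17 to -0.01.

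Hmox1 did not follow the other macrophage genes. It was at 7.18 (labelled naive), 6.09 (TT naive), 7.92 (cTh1) and 6.38 (nTh1), so both thymic arrays were low. Axl was at 8.91, 7.92, 9.40 and 8.77, also highest in cTh1. Hmox1 is induced by haem and oxidants in many cell types, and neither gene is restricted to macrophages.

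The remaining pairs share arrays with those above, and their values are given for the members only. In TT naive minus the array labelled naive, 2-fold was reached by 11 of 39 members, all of them lower, against 2.59% and 0.795% of all genes past the filter. The 11 are C1qb, C1qc, Clec7a, Fcer1g, Hmox1, Lilrb4a, Ly86, Lyz2, Mpeg1, Pld4 and Plek. Fcer1g was the lowest of them at -2.48 and C1qb was at -1.95, while the 8 granulocyte genes had a median of -0.04. The macrophage median was -0.74 and the shared signalling median -0.81.

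In nTh1 minus the array labelled naive, 2-fold was reached by 13 members, all of them higher, against 1.93% higher and 4.43% lower among all genes past the filter. With centred arrays 10 members were higher, and the shares were 1.31% and 6.28%; with the loess trend removed they were 2.44% and 3.57%. Ngp at 3.54, Fn1 at 2.70, Retnlg at 2.35 and Ltf at 1.88 led them, S100a9 was higher by 1.21, and Cd68 by 1.18. C1qa, C1qb and C1qc differed by 0.06, 0.39 and 0.38, all under 2-fold. The granulocyte median was 1.38 and the macrophage median 0.48. In cTh1 minus TT naive, 2-fold was reached by 11 members, all of them higher, against 7.24% and 3.02% of all genes past the filter. Lilrb4a was higher by 6.96, Pld4 by 4.14, Ly86 by 3.88 and Bst1 by 3.45, while C1qb differed by -0.03 and the granulocyte median was 0.22.

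Some members stood out on a single array. Lyz2, Adgre1, Fn1, Ngp, Retnlg and Ltf were at least 2-fold above each of the other 3 arrays in nTh1, a pattern that 0.317% of the 13238 genes past the filter on any array showed. With centred arrays Adgre1 fell just short of 2-fold above the array labelled naive. In cTh1 the same held for Pld4, Ly86, Fcgr3, Lilrb4a and Bst1, against 3.54% of all genes. No member stood out in this way on the array labelled naive or in TT naive, where 0.567% and 0.0378% of all genes did.

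Genes of the same lineages outside the list had smaller median differences. The members were chosen with earlier results of these arrays known, so this contrast is a description and not evidence. Of 36 other macrophage genes measured, 26 passed the filter in nTh1 minus TT naive, where Sirpa, the receptor for CD47, was higher by 1.14, and Lgmn, a lysosomal protease, was lower at -1.12. Their median was 0.25. The difference was positive for 30 of the 36 and negative for 6. In nTh1 26 of them were above the olfactory receptor level, against 20 in TT naive, 22 in cTh1 and 26 on the array labelled naive. Of 32 other granulocyte genes, 13 passed the filter and nTh1 exceeded TT naive at least 2-fold for 3, with a median of 0.32. They were Mmp8, the neutrophil collagenase, by 1.76, Lcn2 by 1.67 and the chemokine Cxcl2 by 1.12. Mmp8 and Lcn2 are made with the same granules as Ngp and Ltf, and were at 5.55 and 6.23 in TT naive and 7.31 and 7.90 in nTh1. The receptors of mature neutrophils did not show one pattern. Csf3r was at 6.71 in nTh1 and 5.78 in TT naive, while Cxcr2 was at 10.58 in cTh1 and 7.31 in nTh1.

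Most genes of the pathways around the members did not reach 2-fold. Of 6 measured NADPH oxidase genes, Cybb alone was at least 2-fold higher in nTh1 than in TT naive (median 0.06), and Cybb and Ncf1, by 3.12, were higher in cTh1 than on the array labelled naive. Of 17 genes for the uptake of dead cells, none was at least 2-fold higher in nTh1 than in TT naive and Mfge8 was lower at -1.15 (median 0.16). Of 16 genes of iron and haem recycling, Slc40a1 alone was higher (median 0.11). Of 16 complement genes, C1qb and C1qc were higher and Cd55, a complement inhibitor, was lower at -1.30 (median 0.41). Of 30 Fc receptor and adaptor signalling genes, 6 were higher and none lower (median 0.38), namely Clec7a, Fcer1g, Lilrb4a and Tyrobp of the members, with Sirpa and the inhibitory receptor Fcgr2b by 1.07. These lists contain some of the members.

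**Figure D3:**
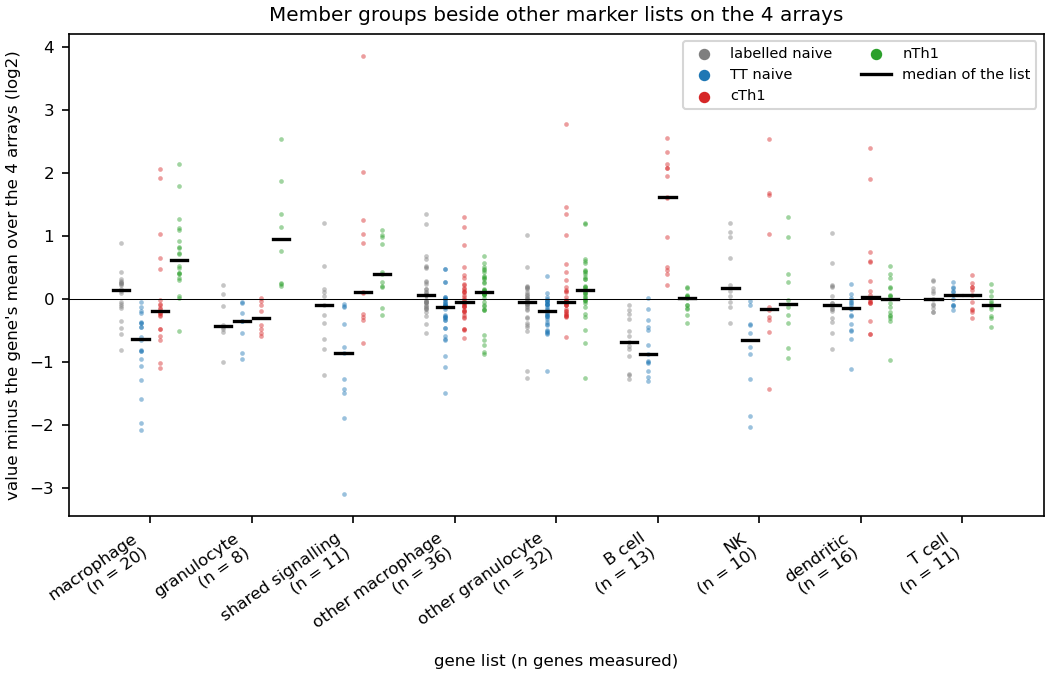
Each point is 1 gene's log2 value on 1 array minus its own mean over the 4 arrays, for the member groups and for other marker lists (n genes below each name), and black bars are list medians. The granulocyte members stand above the other arrays in nTh1, macrophage and shared signalling members are low in TT naive, the B cell list is high in cTh1, and the T cell list is level.

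Markers of other cell types moved with the same arrays, and their part in the members' values was not tested. No value in the table is 0. The log2 of the summed linear values of the B cell list was 10.2 (labelled naive), 10.05 (TT naive), 12.7 (cTh1) and 10.8 (nTh1), and 8 of 13 B cell genes were above the olfactory receptor level in nTh1 against 4 in TT naive. For the macrophage members the same sum was 11.7, 10.9, 12.3 and 12.5, and for the granulocyte members 8.70, 8.63, 8.75 and 10.3. In nTh1 minus TT naive the NK list, which shares Fcer1g, Tyrobp and Fcgr3 with the members, had a median of 0.72 and 4 of 10 genes at least 2-fold higher. Of 16 dendritic cell genes 1 was higher, Itgax by 1.04, and of 9 mast cell and basophil genes 1, the protease Cpa3 by 1.65. No gene of the eosinophil, platelet, erythroid, thymic stroma or T cell lists reached 2-fold in this comparison, and their medians were 0.32, 0.34, 0.06, -0.23 and -0.10.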

How the data were processed

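Biotin-labelled cDNA of 4 cell populations was read on 4 Affymetrix arrays, 1 per population. In the deposited table each value is a log2 summary of a probe set, which the authors computed by RMA (Affymetrix Expression Console, version 1.3.1), per the submitters' processing notes. RMA gives the probe intensities of the arrays a common distribution before they are summarised, and compresses differences near background. The medians of the summarised values still differed, from 6.52 in cTh1 to 6.70 in nTh1. The sources used here do not state the summary level. The table held 41345 probe sets and 0 unmatched columns. Precision is limited by the number of arrays.

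Names came from the platform annotation: 23521 probe sets had 1 symbol, 1814 several and 16010 none. For a gene with several probe sets the one with the highest mean was used, and each member had 1. Gene IDs of all 39 members were found in the RefSeq table (GRCm38.p6), with 0 differing symbols.

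Members and lists were chosen with earlier results of these data known. No test was made. Counts need 2-fold or more and the level filter, and medians cover all measured genes. All members are named, with 4 values for those at 2-fold or more in a main comparison or among the 10 highest members on an array. Of each other list at most 4 genes past the filter are named by size of difference. The further markers Cd3e, Cd4, Eif2s3y, Xist, Csf3r, Cxcr2, Cxcr3, Zbtb16, H2-Aa, Lyz1, Cd79a, Ms4a1 and Spib were chosen after their values were seen. The same holds for Tbx21, Ifng, Ncr1, Klrb1c, Klre1, Klrk1 and Klrd1. The counting step was checked on simulated data. Python 3.11.15, numpy 2.4.6, pandas 2.3.3, statsmodels 0.14.6 and matplotlib 3.10.9 were used.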

Additional observations from a re-analysis of the deposited data

How the results depend on the processing

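Centring the arrays on their medians, removing a loess trend (span 0.3), averaging probe sets and dropping the level filter left the members' counts and medians in the 3 main comparisons within 1.5 times or within the SD between probe sets. No member at 2-fold or more changed sign under centring, the loess trend or averaging.

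Shares over all genes moved further in nTh1 minus cTh1, from 3.46% higher and 8.3% lower to 2.14% and 11.5% with centring and 2.3% and 4.98% with no filter, and in cTh1 minus the array labelled naive, from 5.13% higher and 3.35% lower to 3.13% and 2.08% with no filter, where all 22180 genes are the base.

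The 75th percentile filter and the 3-fold threshold test fewer genes or ask for more, and moved the small counts. A gene passes a filter through its higher array, so larger medians over genes past a filter follow from the filter's construction and support nothing. With the filter, nTh1 minus TT naive had 11 members at least 2-fold higher, of which 5 macrophage and 1 granulocyte, and medians of 2.37 over all members, 2.36 for macrophage, 3.50 for granulocyte genes, which is Ngp alone, and 2.37 for shared signalling genes. In cTh1 minus the array labelled naive 2 members were lower, 1 macrophage and 1 shared signalling, with medians of 1.41 over all members, 0.49 for macrophage genes, a turn from -0.18, and 1.65 for shared signalling genes. In nTh1 minus cTh1 5 were higher, 3 macrophage, 1 granulocyte and 1 shared signalling, with medians of 3.13 for granulocyte genes, again Ngp alone, and -0.38 for shared signalling genes.

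At 3-fold, 7 macrophage genes were higher in nTh1 than in TT naive. In cTh1 minus the array labelled naive 1 member was lower, a macrophage gene, and 0 shared signalling genes. In nTh1 minus cTh1 2 members were lower, 0 of them macrophage genes, while 4 macrophage and 1 shared signalling genes were higher. For the same reason, medians over members past the median filter were larger, 1.51 for macrophage and 1.70 for granulocyte genes in nTh1 minus TT naive, and 1.83 for granulocyte genes in nTh1 minus cTh1. Above the olfactory receptor level the macrophage median in nTh1 minus TT naive was 1.51. No paired analysis was possible because each population has 1 array. Values near background, such as those of Cd14, Camp and S100a8, limit what can be said of these genes.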
